A study of Rattus norvegicus with 8 samples.

Results

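The genes described here are Nfe2l2, which encodes the transcription factor NRF2, Keap1, which encodes its inhibitor, and 8 antioxidant genes that NRF2 is known to switch on: Nqo1, Txnrd1, Hmox1, Gclc, Gclm, Srxn1, Gsr and Gsta1. They were chosen by name, and each was read by the probe set that the platform annotation pairs with that gene alone. All 10 were measured, out of 14506 genes, and each had a single such probe set. The cells were cardiomyocytes isolated from the ventricles of newborn rats and plated in 6 cm dishes. One group of 4 arrays held cells transfected by lipofection with a miR-222 precursor at 0.4 µM, and the other group of 4 held cells given a scrambled control precursor at the same dose. RNA was taken 48 h later from both groups, so both had been through lipofection and carried a synthetic RNA. The labels name no rat strain, no pooling of animals and no count of separate cell isolations, so p-values here cover the spread among these arrays, which may be technical.

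In resting cells KEAP1 holds NRF2 in the cytoplasm and hands it to a CUL3 ubiquitin ligase for destruction. Oxidants and electrophiles modify cysteines of KEAP1, NRF2 then accumulates, pairs with a small MAF protein in the nucleus and binds antioxidant response elements (AREs) of genes for glutathione synthesis, thioredoxin reduction, quinone reduction and heme breakdown. NRF2 is therefore set largely at the protein level, which an array does not read. In the heart its targets are known for limiting oxidative damage after ischemia and during overload. miR-222 lowers messages that pair with its seed, the stretch near its 5′ end that it shares with miR-221.

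The mature sequences of the transfected microRNA and of its relative are given from RefSeq (build GRCr8) to show that shared seed, bases 2 to 8, in capitals. Which strand the precursor released in these cells is not stated in the labels, and the 3p strand is the one usually called miR-222.
rno-miR-222-3p: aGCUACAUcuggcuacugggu
rno-miR-221-3p: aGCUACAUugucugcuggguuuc

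Promoter windows were searched for the core of the ARE, TGACNNNGC, on both strands. RefSeq windows of 300 bases, from 250 before to 50 after an annotated start, were matched for 8 of the 10 genes, with 2 windows for Txnrd1. Both windows of Txnrd1 (gene at chr7:22717620-22802553) and that of Nfe2l2 (gene at chr3:81001529-81031165) lie wholly inside the annotated gene, at internal starts. The starts used for Gclc (gene at chr8:87510251-87548896) and Gsta1 (gene at chr9:31199887-31216606) are internal too. Their windows, chr8:87510226-87510525 and chr9:31216483-31216782, lie partly inside the gene, that of Gclc for most of its length. Hmox1 and Gsr had no entry in the table used here. A match was found for 4 of these 8 genes, Nfe2l2, Txnrd1, Gclm and Gsta1, in the case of Txnrd1 in 1 of its 2 windows. Among all genes of the array with a window 14.2% of 11968 held a match, and among all 33469 rat windows of this length 12.1%. The matches are shown with up to 10 bases on each side, on the strand of the gene, with the matched bases in capitals. Those of Txnrd1 and Gclm read GCNNNGTCA, which is the same motif on the other strand.
Txnrd1, chr7:22755964-22755992, minus strand: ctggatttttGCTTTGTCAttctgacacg
Gclm, chr2:213031953-213031981, plus strand: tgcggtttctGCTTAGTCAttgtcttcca
Gsta1, chr9:31216484-31216512, minus strand: aactcaggcaTGACTTTGCatttttcttc
Nfe2l2, chr3:81028950-81028971, minus strand: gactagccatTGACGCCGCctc

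The first base of the match lay at -78 from the start site in Txnrd1 and at -172 in Gclm, and at 39 and 31 within the transcribed part in Nfe2l2 and Gsta1. None of these matches overlapped the related AP-1 motif TGANTCA. Srxn1 held 2 AP-1 matches, at -62 and -5, and no exact ARE core, and 7.33% of all windows held an AP-1 match. With the 2 bases that follow it, the match at -5 reads TGAGTCAGC, which differs from the ARE core by a single base. Keap1, Nqo1 and Gclc held neither motif in these windows, of which that of Gclc covers little sequence upstream of the gene. The elements known to act in these genes can lie farther upstream, so the absence of a match says only that the letters are not in this window. The 250 bases before an internal start of Txnrd1 are printed because this gene is the target that rose, as described below, and holds a match there.
Txnrd1, chr7:22755905-22756154, minus strand: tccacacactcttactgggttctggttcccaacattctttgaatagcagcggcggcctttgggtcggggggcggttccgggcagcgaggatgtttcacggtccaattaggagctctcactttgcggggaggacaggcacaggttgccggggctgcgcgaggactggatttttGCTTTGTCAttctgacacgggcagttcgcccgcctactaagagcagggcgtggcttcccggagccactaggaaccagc

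The arrays had median intensities of 208 to 219 with miR-222 and 202 to 217 with control. Over all genes the first principal component held 52.9% of the variance and separated the groups, and miR-222 replicate 3 stood farther out than the others of its group, at 21.9 against 12.1 to 13.0, with control arrays at -15.9 to -13.5. Values that turn on that array are given with and without it. Of 10 cardiomyocyte markers all lay above the median level of the probe sets, and 3 were lower with miR-222 and 0 higher, with a summed intensity of 94036 to 95560 with miR-222 and 101594 to 103877 with control. Among markers of other cells, 2 of 10 fibroblast, 1 of 7 smooth muscle and 1 of 8 endothelial genes were lower and 0 higher, and of 9 leukocyte genes 1 was higher and 1 lower. Of 4 erythroid markers 1 was higher, and none of 3 Schwann and 5 epicardial markers passed. No marker was at 0, and 6 of 8 endothelial, 6 of 9 leukocyte and 3 of 10 fibroblast markers lay below the median level of the probe sets. The summed fibroblast intensity was 8478 to 9743 with miR-222 and 9712 to 10874 with control. Smooth muscle sums were 22070 to 24905 against 26298 to 26654, and endothelial sums 1521 to 1649 against 2125 to 2296. The genes called lower in these 3 lists were Lum (-0.89) and Postn (-0.54) of fibroblasts, Tagln (-0.91) of smooth muscle and Kdr (-1.51) of endothelium. The cardiomyocyte markers called lower were Myh7 (-0.61), Nppa (-0.20) and Ryr2 (-0.14). Leukocyte, erythroid, Schwann and epicardial sums overlapped between the groups. Apart from Kdr, the endothelial markers ranged from -0.13 (Cdh5) to 0.04 (Pecam1) and none passed. Apart from Tagln, the smooth muscle markers ranged from -0.28 (Cnn1) to 0.16 (Myh11) and none passed. The part of cell composition in the results below was not tested. By the sums alone, fewer cells of a type, less RNA per cell and a change in single marker genes cannot be told apart.

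The comparison asks which of these transcripts differed in cardiomyocytes given the miR-222 precursor. The 10 genes did not move together. Nqo1, a quinone reductase, was 1.45-fold lower, Gsta1, a glutathione transferase, 1.28-fold lower, and Gsr, glutathione reductase, 1.15-fold lower, whereas Txnrd1, thioredoxin reductase, was 1.22-fold higher and Nfe2l2 itself 1.10-fold higher. Keap1, Gclc, Gclm, Srxn1 and Hmox1 did not pass the test. With limma on log2 intensity and an adjusted p under 0.05 over all probe sets, 2 of the 10 were higher and 3 lower, and the counts became 1 higher and 3 lower with arrays centred on their medians and 2 higher and 2 lower after quantile normalization. Over all genes 24.7% passed, 11.7% higher and 13.0% lower, and 36.9% passed among the 8676 genes brighter than the median probe set, where all 10 lay. The median log2 fold change of the 10 was -0.07 (-0.13 without miR-222 replicate 3 and -0.04 without replicate 2), and that of all genes was 0.01. Below, each difference is the mean log2 intensity with miR-222 less that with control (4 arrays each), SE is its standard error in limma, and levels are log2 intensities in the order of replicates 1 to 4. Levels of different genes come from different probes and are not set against each other.

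**Figure D1:**
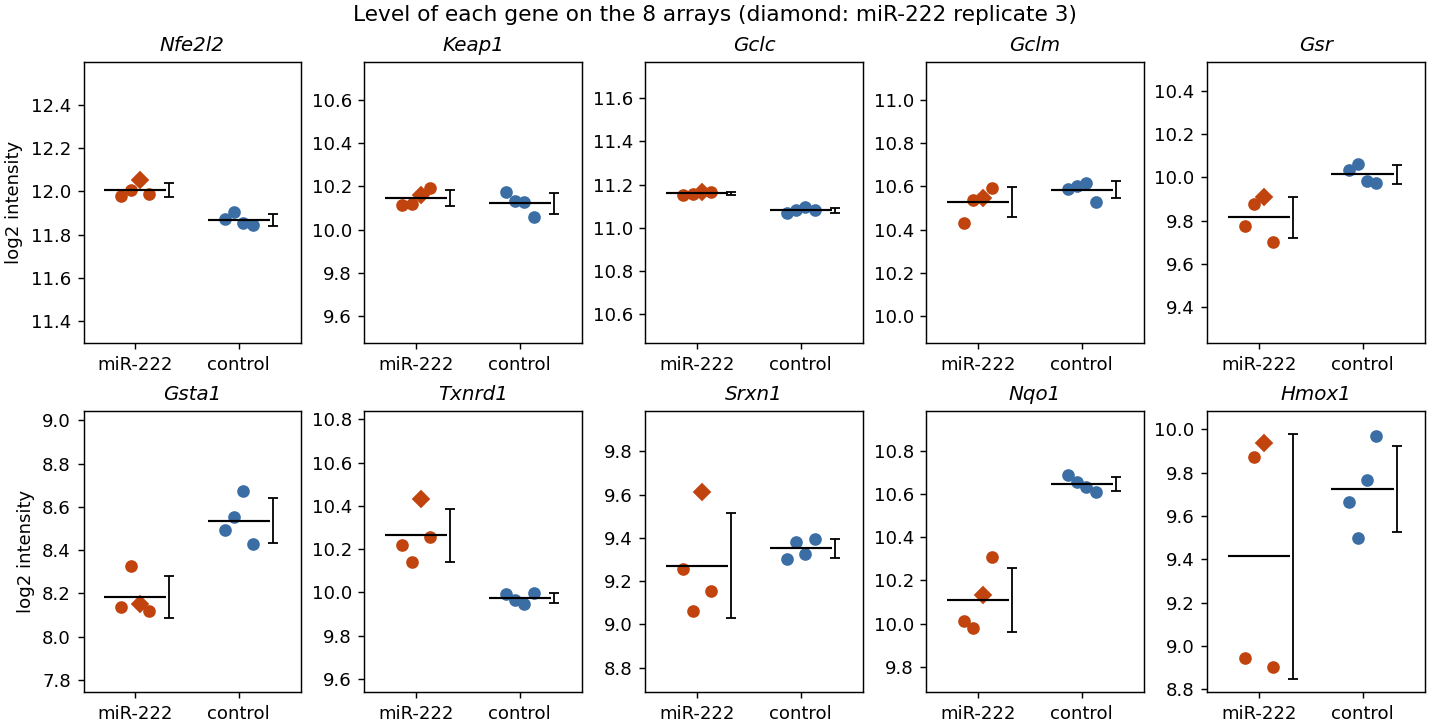
Level (log2 intensity) of the 10 genes on each array, miR-222 left and control right, with the group mean as a line and the SD as a bar beside it (n = 4 each); every panel spans the same number of log2 units. Nqo1 and Gsta1 lie lower on every miR-222 array than on any control array, Txnrd1 lies higher, and Hmox1 splits the miR-222 arrays into 2 near 9.9 and 2 near 8.9.

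Nfe2l2, the regulator itself, read 11.98, 12.01, 12.05 and 11.99 on the miR-222 arrays, against 11.87, 11.91, 11.85 and 11.84 on the control arrays. All miR-222 values lay above all control values, but by a narrow margin. The difference was 0.14 (SE 0.04, limma adjusted p = 0.0384). Leaving out any 1 array ended the call (adjusted p = 0.0622 to 0.0936, difference 0.12 to 0.15) and so did centring the arrays on their medians, where the difference was 0.11 (adjusted p = 0.182). The gene lies at chr3:81001529-81031165 (GRCr8).

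Keap1, the adaptor that brings NRF2 to its ligase, read 10.11, 10.12, 10.16 and 10.19 with miR-222, against 10.17, 10.13, 10.13 and 10.06 with control. The groups overlapped throughout. The difference was 0.02 (SE 0.04, adjusted p = 0.772), and its 95% confidence interval ran from -0.07 to 0.12, or 0.950-fold to 1.09-fold, so that a change larger than this in either direction lies outside the interval.

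Both subunits of glutamate-cysteine ligase, which makes the first bond of glutathione, stayed within a narrow range. Gclc, the catalytic subunit, read 11.15, 11.16, 11.17 and 11.17 with miR-222, against 11.07, 11.08, 11.10 and 11.08 with control. All 4 miR-222 values were higher, and replicates differed by no more than 0.03, yet the difference of 0.08 (SE 0.03, adjusted p = 0.161) did not pass. It passed with an intensity trend and robust variance, set together (adjusted p = 0.0475), and its confidence interval reached 1.11-fold. Gclm, the modifier subunit, read 10.43, 10.54, 10.55 and 10.59 with miR-222, against 10.59, 10.60, 10.62 and 10.53 with control. The groups overlapped, and the difference was -0.06 (SE 0.05, adjusted p = 0.488, interval -0.17 to 0.05).

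Gsr, which returns oxidized glutathione to its reduced form with NADPH, read 9.78, 9.88, 9.91 and 9.70 with miR-222, against 10.03, 10.06, 9.98 and 9.97 with control. Every miR-222 array was lower than every control array. The fall was -0.20 (SE 0.06, adjusted p = 0.0428). Its call held without miR-222 replicate 2 or 3 and was lost without any other single array, with adjusted p of up to 0.111, and after quantile normalization (adjusted p = 0.0615). Without miR-222 replicate 3 the difference was -0.23 (adjusted p = 0.0308).

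Gsta1, an alpha-class transferase that joins glutathione to electrophiles and lipid peroxidation products, read 8.14, 8.33, 8.15 and 8.12 with miR-222, against 8.49, 8.55, 8.67 and 8.43 with control. The groups did not overlap, and miR-222 replicate 2 stood nearest to control. The difference was -0.35 (SE 0.07, adjusted p = 0.00956), and it passed in all 16 alternatives. Alpha-class transferases are close relatives in sequence, and cross-hybridization of their transcripts with this probe set was not tested.

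Of the 2 genes of the thioredoxin arm, Txnrd1 passed and Srxn1 did not, and no test compared them with each other. Txnrd1, the cytosolic selenoenzyme that reduces thioredoxin, read 10.22, 10.14, 10.43 and 10.26 with miR-222, against 9.99, 9.97, 9.95 and 9.997 with control. All miR-222 arrays were higher, and replicate 3 was the highest of them. The difference was 0.29 (SE 0.06, adjusted p = 0.0158), passed in all 16 alternatives, and was 0.23 without miR-222 replicate 3 (adjusted p = 0.0128). Srxn1, which repairs overoxidized peroxiredoxins, read 9.26, 9.06, 9.61 and 9.15 with miR-222, against 9.30, 9.38, 9.33 and 9.39 with control. Replicate 3 lay above every control array and the other 3 miR-222 arrays lay below every control array. With all arrays the difference was -0.08 (SE 0.11, adjusted p = 0.689, interval -0.34 to 0.18), and without replicate 3 it was -0.19 (adjusted p = 0.0658), which also did not pass. Without replicate 2 it was -0.01 and without replicate 4 it was -0.04.

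Nqo1, the quinone reductase that is widely used as a readout of NRF2, showed the largest difference of the 5 genes that passed. It read 10.01, 9.98, 10.13 and 10.31 with miR-222, against 10.69, 10.66, 10.63 and 10.61 with control. The control arrays lay within 0.08 of each other and the miR-222 arrays within 0.33, with no overlap between the groups. The level averaged 10.11 ± 0.15 with miR-222 and 10.65 ± 0.03 with control (SD, n = 4 each). The difference was -0.54 (SE 0.07, limma adjusted p = 0.00181), and it stayed between -0.60 and -0.50 and past the threshold in all 16 alternatives.

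Hmox1, heme oxygenase, which opens the heme ring and is also induced by routes other than NRF2, was the most variable gene of the set. It read 8.94, 9.87, 9.94 and 8.90 with miR-222, against 9.67, 9.50, 9.77 and 9.97 with control. Replicates 1 and 4 with miR-222 lay below every control array, and replicates 2 and 3 within the control range. The difference was -0.31 with an SE of 0.26 (adjusted p = 0.481), and its interval of -0.91 to 0.29 held both a fall to 0.531-fold and a rise to 1.22-fold. The SD was 0.57 with miR-222 and 0.20 with control. Nfe2l2, Gsr and Gsta1 also had their 2 highest miR-222 values on replicates 2 and 3, whereas Nqo1 and Txnrd1 did not. The difference of Hmox1 was -0.49 without miR-222 replicate 3 (adjusted p = 0.268), -0.46 without replicate 2, -0.15 without replicate 1, -0.14 without replicate 4 and -0.50 with array weights, and it passed in none of the 16 alternatives.

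**Figure D2:**
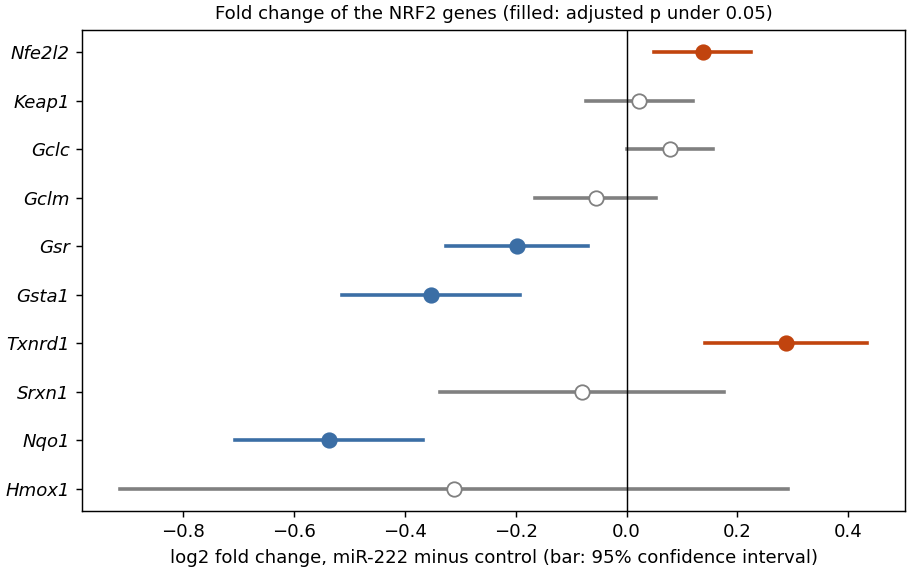
Log2 fold change, miR-222 minus control, of the 10 genes with its 95% confidence interval from limma (n = 4 each); filled points passed an adjusted p of 0.05. Nqo1 at -0.54, Gsta1 at -0.35 and Gsr at -0.20 lie left of 0, Txnrd1 at 0.29 and Nfe2l2 at 0.14 lie right of it, and the interval of Hmox1 is the widest.

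Of the 10 genes 6 had groups that did not overlap (the 5 that passed, and Gclc), where 33.3% of all genes and 49.6% of the genes brighter than the median probe set did so. Nqo1, Txnrd1 and Gsta1 kept their calls in every alternative tried, and the calls of Nfe2l2 and Gsr did not. The genes most like Nfe2l2 in level over the 8 arrays were Kcmf1 (Pearson r = 0.990), Dlgap1 (r = 0.989), Rell1 (r = 0.989), Kyat3 (r = 0.988) and Slc26a6 (r = 0.988). These values include the difference between the groups, and with each group centred on its own mean the 5 genes correlated with Nfe2l2 at 0.900 to 0.930 over the 8 arrays. The 5 were picked from all genes for the highest correlation on these same arrays, so high centred values are partly set by that choice.

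**Figure D3:**
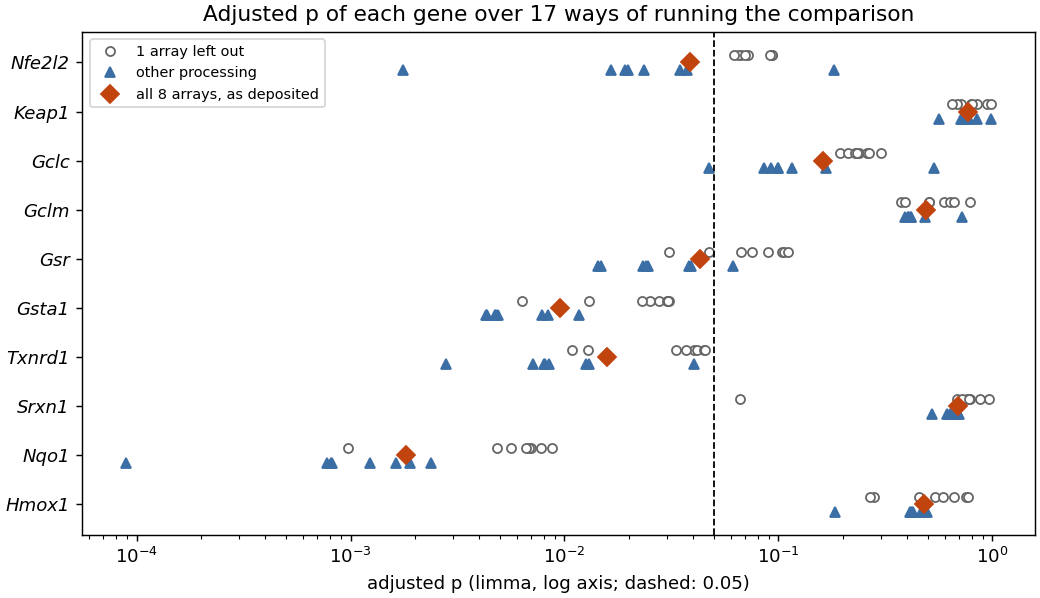
Adjusted p from limma (log axis) of each gene with all arrays as deposited (diamond), with 1 array left out (open circles) and under 8 other ways of processing (triangles); the dashed line marks 0.05. Nqo1, Txnrd1 and Gsta1 stay left of the line throughout, whereas every open circle of Nfe2l2 lies right of it.

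Genes around the antioxidant system were read from 7 wider lists of 149 genes, of which 136 were measured. The lists also hold genes that produce oxidants, such as the NADPH oxidases, and genes that act in the degradation of NRF2. Of these 39 were higher and 23 lower, or 45.6%, to be read beside the 36.9% among brighter genes and the 24.7% among all. Among 16 measured partners and degradation factors of NRF2, 2 were higher, 5 lower and 9 did not pass, with a median of -0.07. Mafk, a small MAF that pairs with NRF2 on the ARE, was lower, at -0.45 (SE 0.07, adjusted p = 0.00433), and Cand1, which exchanges the adaptors of cullin ligases, at -0.30 (SE 0.05, adjusted p = 0.00467). Park7, which encodes the redox-sensitive protein DJ-1, fell by 0.25 (SE 0.04, adjusted p = 0.00337). Bach2 fell by 0.39 (SE 0.06, adjusted p = 0.00364), while its relative Bach1, a repressor that competes with NRF2 for the ARE and is known to hold down Hmox1, rose by 0.46 (SE 0.09, adjusted p = 0.00826). The other members that passed were Nfe2 at 0.42 and the ring protein gene Rbx1 at -0.16, a call that held without miR-222 replicate 4 and was lost without any other single array (adjusted p up to 0.0778). Bach1, Nfe2 and Rbx1 were named to complete the counts, after their values were seen. Bach2 and Nfe2 lay below the median level of the probe sets in both groups, where background can compress a fold change.

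In the glutathione system 10 of 33 measured genes were higher, 5 lower and 18 did not pass, with a median of 0.07. Gpx7 of the endoplasmic reticulum rose by 0.42 (SE 0.05, adjusted p = 6.46e-04), Gpx4, which reduces lipid peroxides in membranes, by 0.34 (SE 0.04, adjusted p = 8.52e-04) and the mu-class transferase gene Gstm5 by 0.42 (SE 0.05, adjusted p = 0.00132). Gsta4, which acts on hydroxynonenal, fell by 0.39 (SE 0.04, adjusted p = 8.06e-04), in the same direction as its relative Gsta1. The other 4 that were lower, named after their values were seen, were Gstm2 at -0.44, Mgst2 at -0.45, Gpx3 at -0.24 and Gpx8 at -0.42. The other genes that were higher, also named after their values were seen, were Glrx and Gstm1 at 0.56 and Mgst1 at 0.51. With them went Gstm7 at 0.49, Gstk1 at 0.45, and Gsto1 and Glrx3 at 0.21. Mu-class transferases share much of their sequence, so that probe sets may read more than one of them.

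Among thioredoxins, peroxiredoxins and methionine sulfoxide reductases 8 of 17 measured genes were higher, 2 lower and 7 did not pass, with a median of 0.04. Sesn1, a sestrin that is also a target of p53, rose by 0.54 (SE 0.06, adjusted p = 8.88e-04), Msrb2 of the mitochondrion by 0.46 (SE 0.05, adjusted p = 5.75e-04) and the selenium carrier gene Selenop by 0.40 (SE 0.06, adjusted p = 0.00214). Prdx3, the mitochondrial peroxiredoxin, fell by 0.39 (SE 0.04, adjusted p = 3.48e-04). Prdx6 at -0.18, named to complete the count after its value was seen, passed (adjusted p = 0.0446) but did not without any single array other than miR-222 replicate 4, after quantile normalization or with array weights (adjusted p up to 0.110).

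Genes that supply NADPH, the electron source for both arms, were the one list with calls in a single direction, with 5 of 12 measured genes higher, 0 lower and 7 without a call, and a median of 0.10. The malic enzyme genes Me1, which encodes the cytosolic enzyme, and Me2, which encodes a mitochondrial one, were both higher, Me1 by 0.54 (SE 0.05, adjusted p = 2.69e-04) and Me2 by 0.58 (SE 0.06, adjusted p = 5.43e-04). The related Me3, at 0.34 (SE 0.06, adjusted p = 0.00638), was named after its value was seen. The transketolase gene Tkt rose by 0.39 (SE 0.06, adjusted p = 0.00299) and the transaldolase gene Taldo1 by 0.21 (SE 0.04, adjusted p = 0.00487), both of the pentose phosphate pathway.

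Among dismutases, catalase and oxidases 5 of 16 measured genes were higher, 1 lower and 10 did not pass, with a median of 0.09. The dismutase genes Sod1, Sod2 and Sod3 and the catalase gene Cat, named after their values were seen, did not pass (limma adjusted p = 0.0647 to 0.608). The xanthine dehydrogenase gene Xdh rose by 0.53 (SE 0.05, adjusted p = 2.89e-04), and genes of the phagocyte NADPH oxidase, Ncf1 and Cybb, also rose (0.26, SE 0.06, adjusted p = 0.0138 for Ncf1, and 0.35, SE 0.08, adjusted p = 0.0186 for Cybb). Nox1 fell by 0.40 (SE 0.07, adjusted p = 0.00647). Ncf1 did not pass with arrays centred on their medians (adjusted p = 0.0669), and Cybb narrowly missed the threshold once control replicate 2 or 4 was removed (adjusted p at most 0.0547). Rac2 at 0.52 and Ccs at 0.20 completed the count and were named after their values were seen. Rac2 lost its call without miR-222 replicate 1 or any single control array (adjusted p up to 0.0771). Ccs lost it without any single array other than miR-222 replicate 4 or control replicate 2, and under both other scalings (adjusted p up to 0.105). Of the 9 leukocyte markers, beside which the phagocyte genes are to be read, Cd74 was higher (0.78, SE 0.20, adjusted p = 0.0275), C3ar1 was lower (-1.71, SE 0.27, adjusted p = 0.00367) and 7 did not pass, with a summed intensity of 2417 to 3251 with miR-222 and 2601 to 2719 with control. Their part in these values was not tested. Xdh, Nox1 and Cybb lay below the median level of the probe sets in both groups.

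In heme and iron handling 3 of 15 measured genes were higher, 2 lower and 10 did not pass, with a median of 0.02. Fech, which inserts iron into protoporphyrin, rose by 0.73 (SE 0.04, adjusted p = 3.98e-05) and the ferritin light chain gene Ftl1 by 0.22 (SE 0.04, adjusted p = 0.00708). Slc11a2, the divalent metal transporter, fell by 0.53 (SE 0.05, adjusted p = 3.85e-04) and Alas1, the entry enzyme of heme synthesis, by 0.23 (SE 0.04, adjusted p = 0.00896). Ireb2 at 0.17, named after its value was seen, passed (adjusted p = 0.0252) but not with arrays centred on their medians or without miR-222 replicate 4 or control replicate 1, 3 or 4 (adjusted p up to 0.0803). The enzymes that lead from heme, Hmox1 to Blvra and Blvrb, held no gene that passed. Blvra measured 0.33 (SE 0.13, adjusted p = 0.130) and Blvrb 0.09 (SE 0.07, adjusted p = 0.450), both named after their values were seen.

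The list of quinone, carbonyl and conjugation enzymes, the class of Nqo1, also held Trib3 and the metallothionein genes Mt1, Mt2A and Mt3. These encode no such enzyme. Calls in this list went both ways, with 6 of 27 measured genes higher, 8 lower and 13 without a call, and a median of 0.01. The higher genes include Mt1 and Trib3 (0.78), and Trib3 was named after its value was seen. Aldh1a1, a retinal dehydrogenase, fell by 1.05 (SE 0.07, adjusted p = 7.33e-05) and the sulfotransferase gene Sult1a1 by 0.75 (SE 0.06, adjusted p = 1.57e-04), both from a control level below the median of the probe sets. The epoxide hydrolase gene Ephx1 rose by 0.61 (SE 0.05, adjusted p = 1.57e-04) and the metallothionein gene Mt1 by 0.82 (SE 0.07, adjusted p = 2.52e-04).

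**Figure D4:**
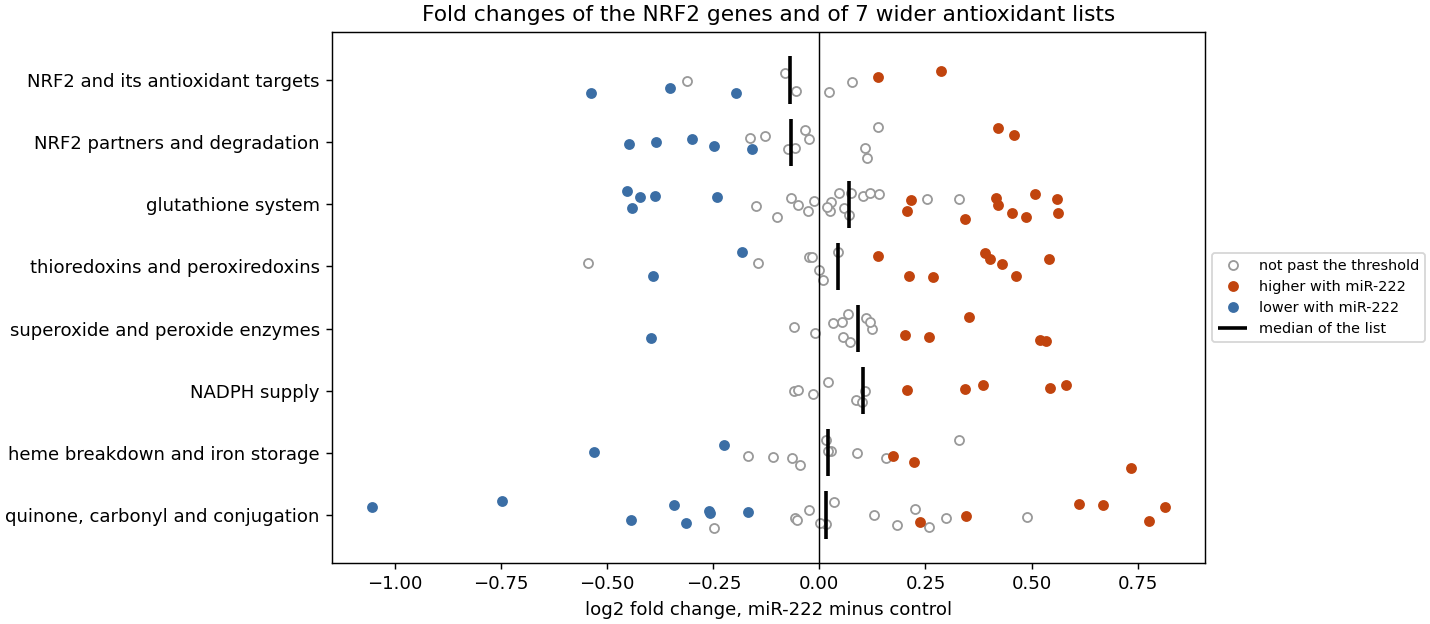
Log2 fold change, miR-222 minus control, of every measured gene of the NRF2 set and of the 7 wider lists; each point is a gene, filled where it passed an adjusted p of 0.05 in limma, and black lines are list medians. Calls lie on both sides of 0 in every list but NADPH supply, where the 5 filled points lie to the right.

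The promoter windows of 112 measured genes of the wider lists were searched in the same way, and 25 of these genes held an ARE core (22.3%, beside 14.2% of the genes of the array), as did 4 of the 8 NRF2 genes with a window. Those 4 went in different directions: Txnrd1 and Nfe2l2 were higher, Gsta1 was lower and Gclm did not pass. Of the 25 genes of the wider lists with a match 7 were higher, 3 lower and 15 did not pass, and of the 87 without one 27 were higher, 15 lower and 45 did not pass.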

How the data were processed

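The deposited table held intensity values on a linear scale, from 0.8 to 16339, for 29170 probe sets on 8 arrays, which the authors had normalized between arrays by a method not given in the sources used here. Per the labels, RNA was labelled with biotin by in vitro transcription. The series text names another Affymetrix rat array than the one whose annotation pairs with the probe sets, and that annotation was used: 15310 probe sets paired with 1 gene, 323 with several and 13537 with none, and 15279 of the gene identifiers were found in RefSeq, which changed 0 symbols.

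Values were taken as log2 and fitted with limma 3.58.1 (lmFit, eBayes) in R 4.3.3 over all probe sets, control probe sets included, with 2-sided p-values adjusted by Benjamini-Hochberg and a threshold of 0.05. A gene was read by its brightest probe set. Array replicates are numbered in the order of listing. The fit was tested on simulated data. The number of arrays limits the precision, with a median SE over genes of 0.07. Arrays correlated at 0.993 to 0.997 within groups and 0.984 to 0.990 between them, over genes.

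The genes named were the 10 members, the 4 of each wider list with the smallest p, and the 5 most like Nfe2l2. Members, lists and tests were chosen with earlier results of these data known. Alternatives were quantile normalization, median centring, an offset of 16, leaving out the dimmest 25% of probe sets, only probe sets with 1 gene, an intensity trend with robust variance, the mean of a gene's probe sets, array weights, and each array left out. Sequences are from RefSeq, build GRCr8. The plots used matplotlib 3.10.9 (Python 3.11.15).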

Additional observations from a re-analysis of the deposited data

Results flagged for a closer look

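In 4 of 100 groups of 4 arrays, a single array stood far from the other 3 by Dixon's test (95% critical value). The groups were those of the 10 members and of most named genes of the wider lists. Chance marks about 1 group in 20. For Gsta1 miR-222 replicate 2 stood at 8.33, and the other 3 lay at 8.12 to 8.15. For Park7 control replicate 2 stood at 12.37, with the others at 12.27 to 12.29. For Me3 control replicate 3 stood at 9.59, with the others at 9.51 to 9.52. For Slc11a2 control replicate 1 stood at 10.77, with the others at 10.66 to 10.67.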

How the results depend on the processing

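The count of 2 higher genes among the 10 was 1 with arrays centred on their medians and 1 when any single array was left out, in each case because Nfe2l2 no longer passed, and the count of 3 lower was 2 to 3 when a single array was left out. Fewer arrays also lowered the calls over all genes, to between 1267 and 1570 higher and between 1404 and 1834 lower with 1 array left out. The wider lists gave 33 to 47 higher and 19 to 28 lower over all alternatives. No called gene among the 10 changed sign under any alternative. Among the alternatives of the 10 genes, 143 kept their side of the threshold, 16 lost a call, all of Nfe2l2 or Gsr, and 1 gained one, for Gclc. Leaving out the lowest 25% of the probe sets by level removed none of the 10. No paired analysis was possible because the labels give no replicate numbers. With 4 arrays in each group, a small difference such as those of Gclc and Keap1 lies near the limit of what could be resolved.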
